A study of Mus musculus with 18 samples.

Results

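Lactate dehydrogenases and monocarboxylate transporters were followed across the 8 groups of a mouse tumor study as 6 genes, Ldha, Ldhb, Slc16a1, Slc16a3, Slc16a6 and Slc16a8, taken by symbol from the 768 genes of a NanoString nCounter metabolic panel. All 6 had a row, and each is given in every one of the 18 samples. Tumors came from TUBO cells, a mammary carcinoma line of BALB/c mice driven by HER2/neu, grown in female BALB/c mice. For 3 weeks the animals received HER2 DC1 (dendritic cells put into the tumor), anti-Semaphorin4D (an antibody that blocks semaphorin 4D), both, or neither. Each of these 4 arms, called DC1, antibody, combination and control here, was sampled as a treated tumor and as an untreated tumor. The combination had 3 samples of each kind of tumor and the other arms had 2. Which tumor of a control mouse is the treated one, and whether the samples came from separate mice, is not given in the labels, so the p-values measure the spread between these samples. None of the epithelial markers set for the tumor cells, Krt8, Krt18, Epcam, Erbb2 and Cdh1, matched a panel gene. The tumor label could therefore not be checked against them.

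Lactate dehydrogenase interconverts pyruvate and lactate as a tetramer of subunits encoded mainly by Ldha and Ldhb. Ldha is linked to lactate production in glycolytic tissue and tumors, whereas Ldhb prevails in tissues that oxidise lactate. Lactate leaves and enters cells with a proton through monocarboxylate transporters of the SLC16 family. MCT1 (Slc16a1) is a broadly expressed transporter of high affinity that carries lactate in either direction. MCT4 (Slc16a3) is an exporter of glycolytic cells, activated leukocytes among them, and MCT3 (Slc16a8) is best known from the retinal pigment epithelium. Slc16a6 encodes MCT7, described in zebrafish liver as an exporter of ketone bodies. Ldha and Slc16a3 are established targets of the hypoxia-inducible factor HIF1, and Ldha and Slc16a1 of MYC.

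The sequences just around the starts of 4 members are shown because HIF1 and MYC recognise short motifs of related letters there. HIF1 binds cores of the letters ACGTG or of the letters GCGTG, and MYC binds CACGTG, which contains ACGTG on each strand and so counts as a match on both. Each line runs from 250 bases before to 50 bases after a start listed for the gene, 5' to 3' on the gene's strand. The sequences were taken from RefSeq for build GRCm38.p6. For Ldhb and Slc16a1 that start is where the gene begins. For Ldha and Slc16a3 it lies inside the gene, which begins at chr7:46842274 and chr11:120948484. Capitals mark every match to any of these motifs on either strand. The windows are chr7:46845554-46845853 on the plus strand for Ldha, chr6:142507908-142508207 on the minus strand for Ldhb, chr3:104638414-104638713 on the plus strand for Slc16a1 and chr11:120948817-120949116 on the plus strand for Slc16a3.
Ldha: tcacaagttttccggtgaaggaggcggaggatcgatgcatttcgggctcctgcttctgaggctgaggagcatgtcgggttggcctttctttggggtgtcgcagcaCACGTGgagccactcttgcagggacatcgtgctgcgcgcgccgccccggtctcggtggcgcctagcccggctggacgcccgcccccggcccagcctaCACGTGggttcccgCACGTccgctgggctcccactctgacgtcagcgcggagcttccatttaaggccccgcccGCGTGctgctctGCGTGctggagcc
Ldhb: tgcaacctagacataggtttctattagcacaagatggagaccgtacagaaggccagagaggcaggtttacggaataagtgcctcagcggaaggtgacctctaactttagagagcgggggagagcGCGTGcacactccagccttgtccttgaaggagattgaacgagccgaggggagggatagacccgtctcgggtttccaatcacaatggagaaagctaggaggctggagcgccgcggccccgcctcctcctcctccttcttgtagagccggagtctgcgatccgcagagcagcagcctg
Slc16a1: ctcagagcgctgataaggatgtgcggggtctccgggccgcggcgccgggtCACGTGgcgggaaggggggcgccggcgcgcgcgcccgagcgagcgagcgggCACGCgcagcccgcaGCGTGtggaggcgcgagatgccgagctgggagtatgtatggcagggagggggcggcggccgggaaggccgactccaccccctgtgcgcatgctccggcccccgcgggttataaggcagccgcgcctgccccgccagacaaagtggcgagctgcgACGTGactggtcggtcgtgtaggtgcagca
Slc16a3: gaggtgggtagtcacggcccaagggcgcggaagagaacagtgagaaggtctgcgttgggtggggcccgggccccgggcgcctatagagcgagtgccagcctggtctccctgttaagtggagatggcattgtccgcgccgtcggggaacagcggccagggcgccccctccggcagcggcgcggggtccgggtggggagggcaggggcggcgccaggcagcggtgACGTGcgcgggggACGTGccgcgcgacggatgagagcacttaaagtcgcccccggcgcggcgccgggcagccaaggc

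Promoter entries were matched for 5 of the 6 members, and Ldha had a second entry. ACGTG occurred 5 times in the Ldha window shown, with 2 CACGTG sites among them, 3 times in the Slc16a1 window, with 1 CACGTG, and 2 times in the Slc16a3 window, with no CACGTG. No ACGTG was found in the Ldhb and Slc16a8 windows or in the second Ldha window. The other core, GCGTG, occurred 2 times in each Ldha window, 2 times in the Slc16a1 window and 1 time in the Ldhb window, and the Slc16a3 and Slc16a8 windows held none. Among 32851 mouse promoter windows of the same length, 19.6% held ACGTG, 32.4% held GCGTG and 7.15% held CACGTG. A match describes the letters only. No binding was measured here.

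Panel counts per sample ran from 203557 to 989371. The lowest were replicate 2 of the untreated-tumor control and, at 238138, replicate 1 of the untreated-tumor DC1 group, and the next sample had 596242. These 2 shallow libraries carried the largest scaling factors, 2.58 and 2.51, and values without them are given beside the results they change. Values are log2(scaled count + 1). The background limit of a sample was drawn 2 SD over the average of the 8 negative-control probes, brought to its scale, and lay between 4.95 and 5.84. Ldha, Ldhb, Slc16a1 and Slc16a6 exceeded the limit in all 18 samples, Slc16a3 in 17 and Slc16a8 in 12. Probes differ in how well they capture their targets, so levels are compared between samples of 1 gene and never between genes. In bulk tumor, more cells of a type and more RNA per cell cannot be told apart.

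**Figure D1:**
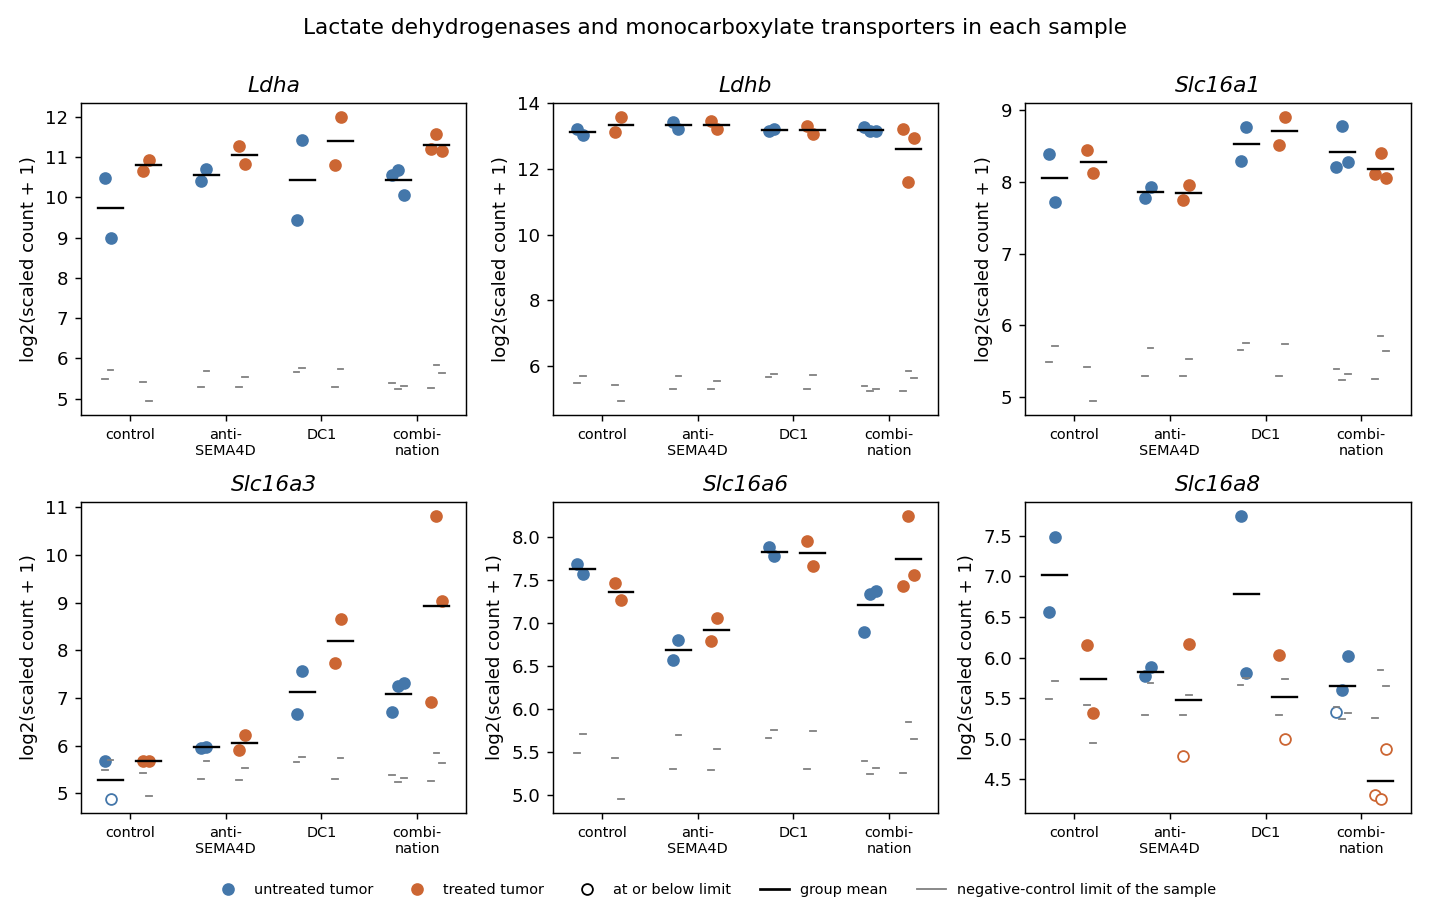
Each panel plots 1 gene, with log2(scaled count + 1) on the y axis and the 4 arms on the x axis; points are samples of the untreated and the treated tumor, bars are group means and short grey lines are each sample's negative-control limit. Slc16a3 spans 4.88 to 10.82 and is higher in every sample with DC1, whereas 1 treated combination sample of Ldhb, at 11.62, stands apart from 17 others.

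Slc16a3, the lactate exporter MCT4, was the member that varied most. Its SD over the 18 samples was 1.46, larger than that of 96.7% of panel genes, for which the median SD was 0.493. All 10 samples that had received DC1, alone or in the combination, lay above all 8 that had not. This separation upward was shown by 8.46% of panel genes.

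In the control arm Slc16a3 measured 5.67 and 4.88 in the untreated tumor, the second below its limit of 5.71, and 5.67 and 5.68 in the treated tumor. Antibody alone gave 5.95 and 5.98 in the untreated and 5.90 and 6.23 in the treated tumor. None of these 8 samples without DC1 exceeded 6.23. With DC1 alone the values were 6.67 and 7.57 in the untreated and 7.73 and 8.65 in the treated tumor. The combination gave 6.71, 7.25 and 7.31 in the untreated tumor. Its treated tumors measured 6.91, 10.82 and 9.03, the widest spread of any Slc16a3 group (SD 1.96, n = 3). The highest group mean was therefore that of the treated combination, 8.92, followed by treated DC1 with 8.19 ± 0.65 (SD, n = 2), untreated DC1 with 7.12 ± 0.64 (n = 2) and untreated combination with 7.09 ± 0.33 (n = 3). Below them came treated antibody with 6.07 ± 0.23, untreated antibody with 5.97 ± 0.016, treated control with 5.68 ± 0.0086 and untreated control with 5.28 ± 0.56 (n = 2 each). Among neighbours in this order, samples overlapped between treated combination and treated DC1, between both untreated groups with DC1, between both antibody groups and between both control groups.

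Against control, Slc16a3 rose by 3.24 ± 0.78 (SE) on the log2 scale in treated tumors of the combination, 9.47-fold, with an adjusted p of 0.00723 (limma, Benjamini-Hochberg over 768 genes). It was the only member of 6 to pass in this comparison, in which 35.4% of panel genes passed upward and the median panel gene shifted by 0.54. After each sample was centred on its panel median, 4 members passed, with Slc16a3 higher (2.53) and Ldhb, Slc16a1 and Slc16a8 lower, and the panel's calls turned from 272 higher and 26 lower to 104 higher and 173 lower. The median difference of the 6 members was 0.14. The Slc16a3 call held when each of the 18 samples was left out in turn, with adjusted p up to 0.0496, and the difference was 2.29 without the combination sample at 10.82. The call was lost when only the 5 samples compared were fitted (limma, adjusted p = 0.0798). It did not hold either with the scaled columns alone, which left 1 treated control and gave a difference of 3.24. In untreated tumors the combination was 1.82 above control (3.52-fold, adjusted p = 0.109), and none of the 6 members passed there, beside 16.8% of panel genes in either direction. Without both shallow libraries that difference was 1.42 (adjusted p = 0.421), and the panel genes called dropped from 129 to 1. The panel's calls there were 121 higher and 8 lower, and 26 higher and 19 lower on panel medians.

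DC1 alone put Slc16a3 2.51 above control in treated tumors (5.70-fold, adjusted p = 0.349) and 1.84 above in untreated tumors (3.59-fold, adjusted p = 0.516). Neither comparison of DC1 alone with control called any panel gene in limma (0% in both, with 109 and 70 genes at an unadjusted p under 0.05). The differences for antibody alone were 0.39 in treated and 0.69 in untreated tumors (adjusted p = 1 and 0.997; 0.29 in untreated tumors without both shallow libraries), where limma also called 0% of panel genes and 11 and 25 had an unadjusted p under 0.05. The antibody-alone and control samples lay close together relative to the shift with DC1.

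Averaged over antibody and kind of tumor, samples with DC1 exceeded those without by 2.08 ± 0.41 (SE) for Slc16a3, a 4.24-fold difference with a 95% interval of 1.20 to 2.96 on the log2 scale (limma, adjusted p = 0.00150). This comparison was added after the values were seen. It called 3 members higher, Slc16a3, Slc16a6 and Slc16a1, beside 44.5% of panel genes, and the median panel gene shifted by 0.38. For Slc16a3 the call held in all 18 fits that left out a sample (differences of 1.85 to 2.33) and after centring each sample on its panel median (1.62, adjusted p = 0.00492). With that centring Slc16a1 and Slc16a6 no longer passed, while Ldhb and Slc16a8 passed as lower (-0.71 and -0.87, adjusted p = 0.0288 and 0.0436), and the panel's calls turned from 342 higher and 16 lower to 97 higher and 164 lower. With the scaled columns alone, which left 1 sample in each control, DC1 and antibody group, the Slc16a3 difference was 2.00 and did not pass.

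The Slc16a3 samples of the combination and of DC1 alone overlapped in both kinds of tumor. The combination exceeded DC1 alone by 0.73 in treated tumors (adjusted p = 0.567, 95% interval -0.94 to 2.41) and differed by -0.03 in untreated tumors (adjusted p = 0.989, interval -1.70 to 1.65). No member passed in either, beside 1.82% and 0% of panel genes (limma; 136 genes had an unadjusted p under 0.05 in the untreated tumor). The treated difference rested on single samples. Without the combination sample at 10.82 it turned to -0.22, and without the one at 6.91 it was 1.74 and passed (adjusted p = 0.0367). Against antibody alone, the combination raised Slc16a3 by 2.85 in treated tumors (7.23-fold, adjusted p = 0.0134), where 2 members passed, beside 34.5% of panel genes upward. Panel medians turned the panel's calls there from 265 higher and 18 lower to 86 higher and 149 lower, with Slc16a3 still higher and Ldhb and Slc16a8 lower. That call was lost without either treated antibody sample (adjusted p = 0.0932 and 0.0529). In untreated tumors the same comparison gave 1.12 (adjusted p = 0.342), with 0 members called beside 12.5% of panel genes (93 higher and 3 lower, or 20 higher and 10 lower on panel medians). Treated combination tumors exceeded untreated ones by 1.83 for Slc16a3 (adjusted p = 0.0994), again with 0 members called, beside 9.11% of panel genes (64 higher and 6 lower, or 35 higher and 48 lower on panel medians). The interaction of DC1 with the antibody was 0.34 in treated and -0.72 in untreated tumors (adjusted p = 0.941 and 0.949), and the difference of the combination effect between the kinds of tumor was 1.43 (adjusted p = 0.589).

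**Figure D2:**
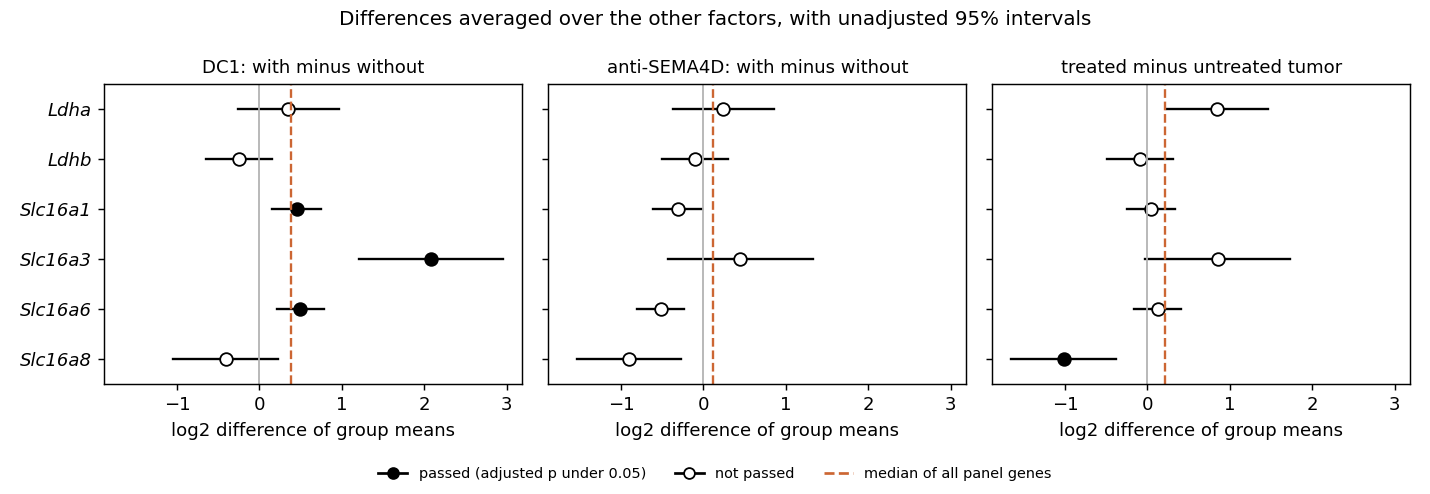
The x axis of each panel is a log2 difference averaged over the other factors, for DC1 (left), antibody (middle) and kind of tumor (right); points are the 6 members, bars are unadjusted 95% intervals, filled points passed, and the dashed line is the median panel gene. Slc16a3 lies at 2.08 in the left panel, away from the dashed line at 0.38, on which Slc16a1 at 0.45 and Slc16a6 at 0.50 nearly sit.

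The panel genes most like Slc16a3 over the 18 samples were Csf3r, the granulocyte colony-stimulating factor receptor, Ccl5, a chemokine, Ptgs2, the inducible prostaglandin synthase, Itgb2, the leukocyte integrin beta chain, and Cd84, a leukocyte surface receptor. Likeness was the root-mean-square difference of log2 values after each gene was centred on its mean, which ran from 0.601 for Csf3r to 0.711 for Cd84, beside 1.42 for the departure of Slc16a3 from its own mean. None of the other 5 members was among them, and the nearest, Ldha, ranked 201 of 555.

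Markers of other cell types moved with Slc16a3 in part. Of the 11 T cell markers measured, 8 rose with the combination in treated tumors, beside 35.4% of panel genes upward, with a median difference of 3.84 against 0.54 for the panel. Lat and Zap70, both signalling proteins of the T cell receptor, were above the limit in neither treated control and averaged 6.74 ± 0.74 and 6.78 ± 0.89 (SD, n = 3) in the combination (adjusted p = 0.000301 and 0.000856). Summed scaled counts of the T cell markers were 288 to 304 in treated control tumors, 364 to 569 with DC1 and 941 to 3344 with the combination. In untreated tumors the sums were 300 to 361 in control and 251 to 297 with DC1, mostly background, since 1 or 2 of the 11 markers exceeded the limit in each of those samples. Cd8a and Cd8b1 were not above it in any sample. Of the 5 macrophage and monocyte markers, 3 rose with the combination in treated tumors, with a median difference of 2.26. Cd84 and Cd68 rose by 3.48 and 2.26 (adjusted p = 0.00138 and 0.00835), and Cd163 also passed (adjusted p = 0.0141) but exceeded the limit in 4 of the 18 samples. Cd14, which made up 16.4% to 92.6% of the summed counts of these markers over the samples, differed by -0.46 (adjusted p = 0.349). With DC1 alone the median difference of the 5 was 0.69 in treated and 0.28 in untreated tumors, and none passed. All 3 endothelial and fibroblast markers rose with the combination in treated tumors (median 2.37), with Col6a1, a collagen chain, at 3.95 (adjusted p = 0.000301). They summed to 124 to 133 in treated control, 268 to 280 in treated DC1 and 871 to 2693 in treated combination tumors, and to 96 to 170 and 131 to 181 in untreated control and DC1 tumors. The 2 neutrophil markers, Csf3r and Mpo, summed to 51 to 51.6 in untreated control and 94 to 98 in untreated DC1 tumors, and to 70 to 72.3, 124 to 223 and 161 to 673 in the treated control, DC1 and combination tumors. Csf3r made up 80.4% to 97.6% of that, and Mpo was above the limit in no sample. The part of these cells in the Slc16a3 difference was not tested.

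**Figure D3:**
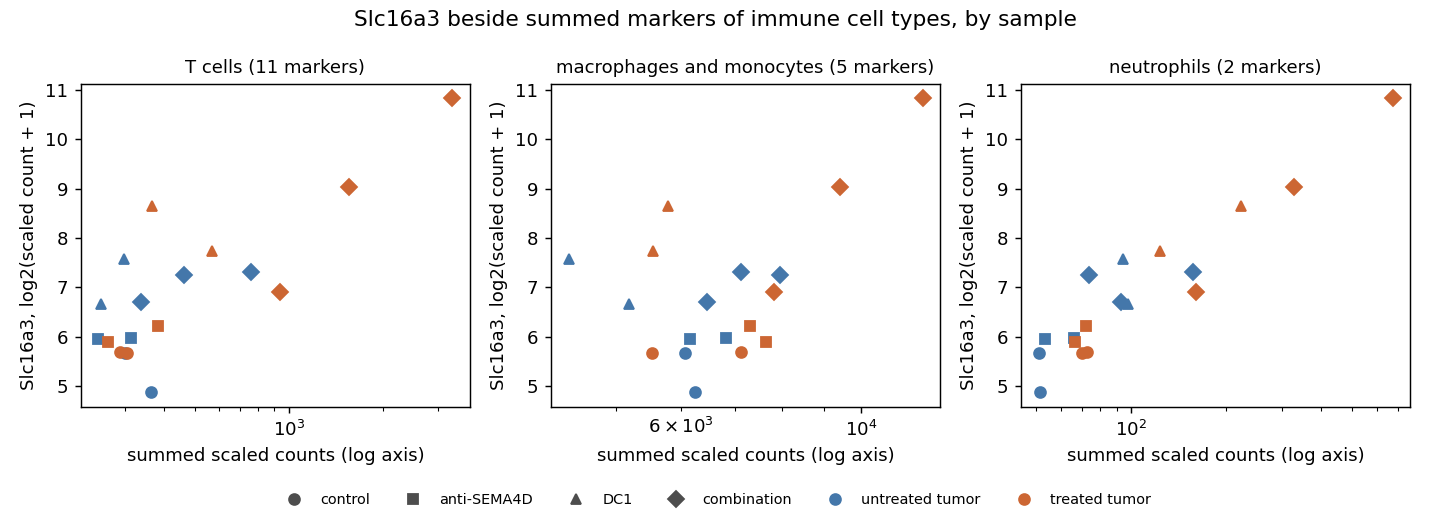
Slc16a3, log2(scaled count + 1), is plotted against the summed scaled counts of T cell, macrophage and neutrophil markers (log axis), 1 point per sample, with shape for arm and colour for kind of tumor. The highest T cell sums, 941 to 3344, belong to the 3 treated combination tumors, whose Slc16a3 values are 6.91, 10.82 and 9.03.

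Slc16a1, the transporter MCT1, kept to a narrow band. It measured 8.39 and 7.72 in untreated control, 7.78 and 7.94 with antibody, 8.29 and 8.77 with DC1, and 8.21, 8.78 and 8.28 with the combination. The treated tumors gave 8.45 and 8.12, 7.74 and 7.96, 8.52 and 8.90, and 8.11, 8.40 and 8.05 in the same order of arms. Its SD over all samples was 0.356, below the panel median of 0.493, and the groups with antibody alone had the lowest means of both kinds of tumor, 7.86 ± 0.11 and 7.85 ± 0.15 (SD, n = 2 each). With the combination in treated tumors it differed from control by -0.10 ± 0.26 (SE; adjusted p = 0.785), and by -0.81 (adjusted p = 0.0145) after centring on panel medians. On the deposited scale it rose with DC1, averaged over antibody and kind of tumor, by 0.45 ± 0.14 (1.37-fold, adjusted p = 0.0169), close to the shift of the median panel gene, and centring on panel medians turned the difference to -0.01 (adjusted p = 0.964). After centring on the panel's housekeeping genes it was 0.21 (adjusted p = 0.152).

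The genes nearest to Slc16a1 in pattern were Kif2c, Odc1, Gart, Cdca8 and Tpx2 (root-mean-square differences of 0.149 to 0.209, beside 0.346 for its own departure from the mean). Kif2c, Cdca8 and Tpx2 act in mitosis, Odc1 is the first enzyme of polyamine synthesis and Gart a purine synthesis enzyme.

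Within a sample, the log2 value of Slc16a1 minus that of Slc16a3 does not depend on how the sample was scaled, and it was read only as a change between arms. It was 2.72 and 2.84 in the untreated and 2.77 and 2.44 in the treated control tumors. With the combination it was 1.49, 1.53 and 0.97 in untreated tumors and 1.20, -2.42 and -0.98 in treated tumors. DC1 alone gave 1.62 and 1.20 in untreated and 0.79 and 0.25 in treated tumors. Antibody alone gave 1.82 and 1.96, then 1.84 and 1.73. Every sample of the combination, of DC1 alone and of antibody alone was below every control sample. With 2 or 3 samples a group such a separation says little, and the share of gene pairs showing it is not given here. The control value of 2.84 rests on Slc16a3 at 4.88, below its limit of 5.71. From control to combination the mean change was -2.39, made of -3.34 in treated and -1.45 in untreated tumors (-1.03 with values raised to the limit). The two-sided exact permutation p was 0.03 over 100 rearrangements within kind of tumor, or 0.06 after adjustment for the 2 pairs tested. The smallest p these rearrangements allow is 0.01. They treat the samples of both kinds of tumor as independent, and the labels do not say whether samples share a mouse.

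**Figure D4:**
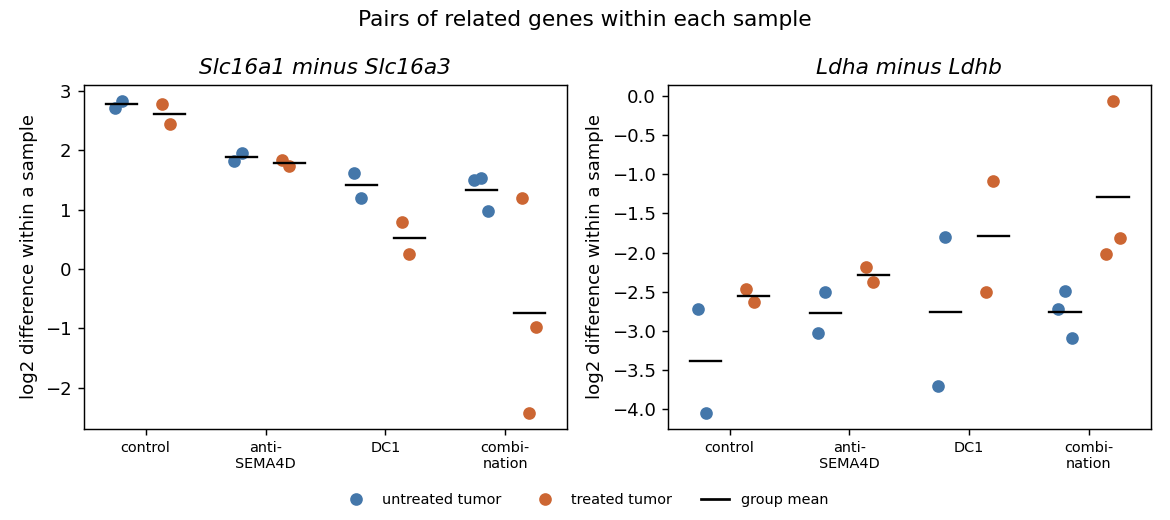
The y axis is the log2 difference between a pair of genes within a sample, Slc16a1 minus Slc16a3 on the left and Ldha minus Ldhb on the right, by arm; points are samples and bars are group means. On the left the control samples lie at 2.44 to 2.84 and the combination samples at 1.53 or lower. The antibody samples there lie at 1.73 to 1.96 and the DC1 samples at 0.25 to 1.62.

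Ldha, which encodes the muscle-type subunit, ranged from 8.99 to 11.99. In control tumors it measured 10.49 and 8.99 in the untreated and 10.66 and 10.94 in the treated tumor, and with antibody 10.41 and 10.71, then 11.26 and 10.83. DC1 gave 9.45 and 11.41 in untreated and 10.79 and 11.99 in treated tumors. The combination gave 10.57, 10.67 and 10.05 in untreated and 11.19, 11.56 and 11.14 in treated tumors. The lowest values, 8.99 and 9.45, were those of the 2 shallow libraries. In the control, antibody and combination arms, all treated samples exceeded all untreated ones, while in the DC1 arm they overlapped. In the control and combination arms Slc16a6 and Slc16a8 did not overlap between kinds of tumor either. Slc16a8 was lower in treated tumors in both arms (-1.28 and -1.17). Slc16a6 was lower in treated tumors of the control arm (-0.27) and higher in those of the combination (0.54). With 2 or 3 samples a group such a separation says little, and the share of panel genes showing it is not given here. The group means ran from 9.74 ± 1.06 (untreated control, n = 2) to 11.39 ± 0.84 (treated DC1, n = 2; SD).

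The Ldha differences between combination and control, 0.50 in treated and 0.69 in untreated tumors (adjusted p = 0.483 and 0.375), did not pass, and the former was -0.21 (adjusted p = 0.760) after centring on panel medians. The untreated difference depended on the shallow control at 8.99. The other untreated control, at 10.49, lay within the combination range of 10.05 to 10.67. Averaged over arms, treated tumors were 0.84 ± 0.28 (SE) above untreated ones (1.80-fold, adjusted p = 0.0667), beside 10.8% of panel genes called higher and a median panel shift of 0.22. Without both shallow libraries the difference was 0.41 (adjusted p = 0.262). With the kind of deposited column as a block, the adjusted p was 0.0371. Of 555 genes compared, Pdpk1, a kinase of insulin signalling, Fdx1 (ferredoxin), Cox7c (a cytochrome oxidase subunit), Nedd8 (a ubiquitin-like protein) and Pycrl, a proline synthesis enzyme, followed Ldha most closely, at root-mean-square differences of 0.229 to 0.298 beside 0.699 for its own departure from the mean.

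Ldhb, the heart-type subunit, stayed between 12.95 and 13.57 in 17 of the 18 samples. Untreated tumors gave 13.22 and 13.05 in control, 13.44 and 13.22 with antibody, 13.15 and 13.22 with DC1 and 13.28, 13.16 and 13.14 with the combination. Treated tumors gave 13.13 and 13.57, 13.45 and 13.21, 13.29 and 13.08, and, with the combination, 13.21, 11.62 and 12.95. The sample at 11.62 was the same treated combination tumor that had the highest Slc16a3 and the highest summed counts of T cell, macrophage, neutrophil, endothelial and fibroblast, adipocyte and muscle markers. The combination differed from control by -0.76 ± 0.35 (SE) in treated tumors (adjusted p = 0.107), and by -0.27 without that sample. Centring on panel medians gave -1.47 (adjusted p = 0.0203) and centring on housekeeping genes -1.08 (adjusted p = 0.0406). In untreated tumors the difference was 0.06 (adjusted p = 0.916).

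Mpc2, a subunit of the mitochondrial pyruvate carrier, was the gene most like Ldhb (root-mean-square difference 0.211), with Ccnb2, Ppargc1a and Sod1 also near, up to 0.253, beside 0.395 for the departure of Ldhb from its own mean. The treated combination sample at 11.62 weighs most in this measure, since Ldhb lay at 12.95 to 13.57 in the others. Mpc2 itself fell by 0.83 with the combination in treated tumors (limma, adjusted p = 0.0287), a group that includes that sample.

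Ldha minus Ldhb within a sample was -2.73 and -4.05 in the untreated and -2.47 and -2.63 in the treated control tumors. With the combination it was -2.72, -2.49 and -3.09 in untreated and -2.02, -0.05 and -1.81 in treated tumors. Combination samples lay above their controls without overlap in treated but not in untreated tumors. Both treated antibody samples, at -2.19 and -2.38, also lay above the treated controls. With 2 or 3 samples a group such a separation says little, and the share of gene pairs showing it is not given here. From control to combination the mean change was 0.94, with 1.26 in treated and 0.62 in untreated tumors. The two-sided exact permutation p was 0.07 (0.07 after adjustment for the 2 pairs). Without the shallow untreated control the change was 0.61 and the untreated part -0.04.

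Slc16a6, which encodes MCT7, was lowest where the antibody was given without DC1. It measured 6.57 and 6.79 in untreated and 6.78 and 7.06 in treated tumors of the antibody arm, against 7.69 and 7.57, then 7.46 and 7.26, in the control arm. Those antibody samples did not overlap with the controls of either kind of tumor. Neither did those of Slc16a1 and Slc16a3 in treated tumors, or of Slc16a3 and Slc16a8 in untreated tumors, with Slc16a3 higher and the others lower. With 2 samples a group such a separation says little, and the share of panel genes showing it is not given here. DC1 alone gave 7.87 and 7.77, then 7.96 and 7.66, and the combination 6.89, 7.34 and 7.37, then 7.42, 8.24 and 7.55. The order of group means ran from 7.82 ± 0.071 (untreated DC1, n = 2) and 7.81 ± 0.21 (treated DC1, n = 2) down to 6.92 ± 0.19 (treated antibody) and 6.68 ± 0.16 (untreated antibody; SD, n = 2 each).

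Antibody alone differed from control by -0.94 ± 0.27 (SE) in untreated tumors (unadjusted p = 0.00424 and adjusted p = 0.947 in limma) and by -0.44 in treated tumors (adjusted p = 1). Averaged over DC1 and kind of tumor, samples with antibody differed from those without by -0.52 ± 0.13 (1.43-fold lower, adjusted p = 0.0807), where limma called 0% of panel genes and 186 had an unadjusted p under 0.05. After centring on panel medians the difference was -0.65 with an adjusted p of 0.0188. In the same comparison Slc16a1 gave -0.31 (adjusted p = 0.188), Slc16a8 -0.90 (adjusted p = 0.109; -0.55 without both shallow libraries), Slc16a3 0.45 (adjusted p = 0.529), Ldha 0.24 (adjusted p = 0.625) and Ldhb -0.10 (adjusted p = 0.752). The comparison was added after the values were seen.

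Relative to antibody alone, the combination raised Slc16a6 by 0.82 ± 0.25 (SE) in treated tumors (1.77-fold, adjusted p = 0.0217), and the median panel gene shifted by 0.55 in that comparison. The difference was 0.09 (adjusted p = 0.748) after centring on panel medians and 0.50 (adjusted p = 0.131) on housekeeping genes. On the deposited scale Slc16a6 also rose with DC1 by 0.50 ± 0.13, averaged over antibody and kind of tumor (1.41-fold, adjusted p = 0.00771), which was 0.04 (adjusted p = 0.823) on panel medians and 0.26 (adjusted p = 0.125) on housekeeping genes. Against control, the combination gave 0.38 in treated (adjusted p = 0.247) and -0.43 in untreated tumors (adjusted p = 0.225; -0.90 with an adjusted p of 0.0185 on panel medians), and the difference between those effects was 0.80 (adjusted p = 0.448). Nup62, Got1, Timeless and Tbc1d10b had patterns near to Slc16a6, at root-mean-square differences of 0.299 to 0.320 beside 0.437 for its own departure from the mean. Slc16a1 ranked 13 of 555 by the same measure, at 0.366.

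Slc16a8, the transporter MCT3, lay near background. In untreated tumors it measured 6.55 and 7.48 in control, 5.77 and 5.88 with antibody, 7.75 and 5.81 with DC1, and 5.33, 5.60 and 6.02 with the combination. Treated tumors gave 6.15 and 5.32, 4.78 and 6.17, 6.03 and 5.0, and 4.30, 4.26 and 4.88 in the same order. The 3 treated combination samples were all at or below their limits, as were 1 treated antibody, 1 treated DC1 and 1 untreated combination sample. The highest values, 7.75 and 7.48, were those of the 2 shallow libraries, where a count is worth more after scaling.

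Averaged over arms, Slc16a8 was lower in treated than in untreated tumors, with a fitted difference of -1.02 ± 0.29 (SE; limma, adjusted p = 0.0433), 1 of 4 panel genes, or 0.521%, called lower in this comparison, which was added after the values were seen. The call was lost without both shallow libraries (-0.66, adjusted p = 0.205) and with values raised to the limit (-0.59, adjusted p = 0.141). It held in 5 of the 18 fits that left out 1 sample. On panel medians it was -1.27 (adjusted p = 0.0304), beside panel calls of 22 higher and 42 lower in place of 83 higher and 4 lower. For Slc16a3 the same comparison gave 0.85 (adjusted p = 0.154), and for Slc16a1, Slc16a6 and Ldhb 0.04, 0.12 and -0.10 (adjusted p = 0.838, 0.505 and 0.724). Against control, the combination differed by -1.26 in treated (adjusted p = 0.0930) and -1.37 in untreated tumors (adjusted p = 0.0977), where it was -0.90 (adjusted p = 0.360) without both shallow libraries. The treated combination was not above background. With its samples set at their limits, the treated controls were on average 1.11-fold higher, a difference of -0.15 (limma, adjusted p = 0.795). Treated control replicate 2, at 5.32, lay below the limits of 5.84 and 5.64 of combination samples, so no lower bound on the fold is set. The B cell gene Ms4a1 was nearest in pattern (0.424), followed by Nos1, Klrb1a, Fanca and Mybl2 up to 0.647, beside 0.916 for Slc16a8 itself.

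**Figure D5:**
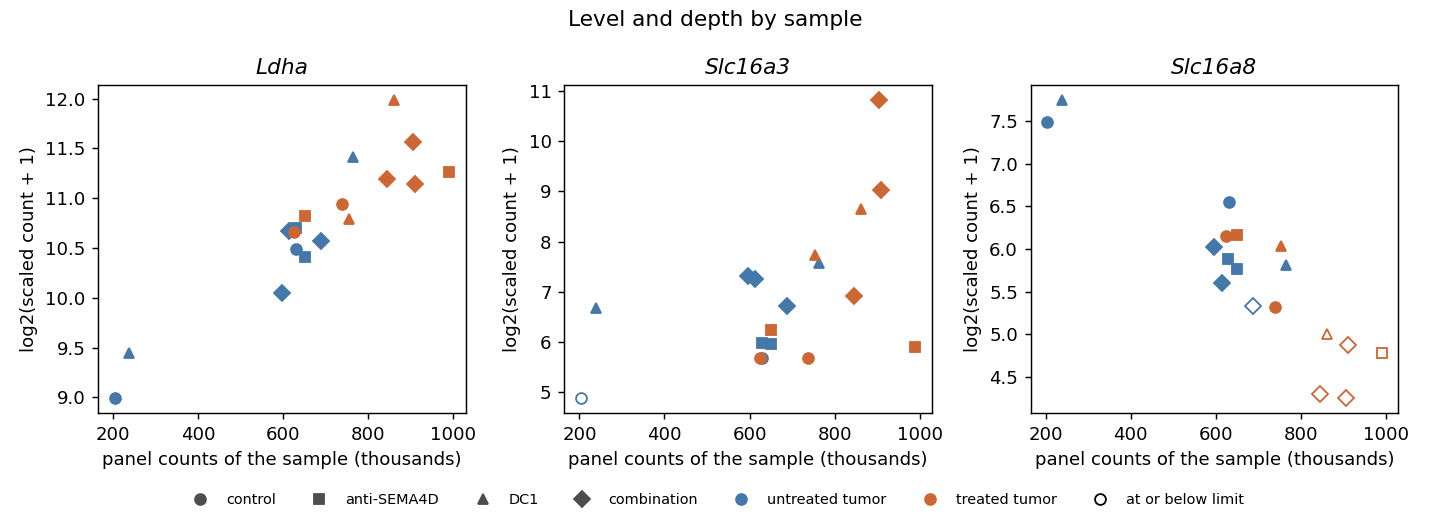
Level, log2(scaled count + 1), is plotted against the panel counts of each sample for Ldha, Slc16a3 and Slc16a8, with shape for arm, colour for kind of tumor and open symbols at or below the negative-control limit. The 2 samples at 203557 and 238138 counts have the lowest Ldha (8.99 and 9.45) and the highest Slc16a8 (7.48 and 7.75), while their Slc16a3 values are 4.88 and 6.67.

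Of 13 glycolysis genes measured, 4 rose with the combination in treated tumors, beside 35.4% of panel genes upward, and their median difference of 0.43 was under the panel's 0.54. In untreated tumors 3 rose, beside 16.8% of panel genes in either direction (medians 0.59 and 0.45), and with DC1 averaged over the other factors 8 rose, beside 44.5% upward (medians 0.62 and 0.38). None fell on the deposited scale. Centring on panel medians lowers every gene by the same amount, which took Slc16a1 from -0.10 to -0.81 for the treated combination against control. That shift exceeds the glycolysis median of 0.43 there. Calls of these genes after centring are not given here. Hk2, an inducible hexokinase, rose by 1.52 in treated tumors (2.87-fold, adjusted p = 0.0139) and Pfkm, a phosphofructokinase, by 0.90 (adjusted p = 0.0120). The centring shift covers most of the Pfkm rise. Hk3, the hexokinase of myeloid cells, rose from 4.57, below the limit in both controls, to 8.94 ± 1.20 (SD, n = 3; adjusted p = 0.000946). Slc2a3, a glucose transporter, also passed (adjusted p = 0.0154), but was above the limit in 1 sample.

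Of 9 genes of pyruvate entry into mitochondria, 2 rose and 1 fell with the combination in treated tumors, again beside 35.4% of panel genes upward (median 0.38). Me2 (malic enzyme) and Pdp1 (pyruvate dehydrogenase phosphatase) rose by 0.82 and 0.77 on the deposited scale (adjusted p = 0.0377 and 0.0429), Mpc2 was the one that fell, and Pdk2, a pyruvate dehydrogenase kinase, differed by 0.38 (adjusted p = 0.0665). The shift from centring on panel medians, which took Slc16a1 from -0.10 to -0.81 in this comparison, covers most of the rises of Me2 and Pdp1. Their calls after centring are not given here. In untreated tumors 2 rose. Of 7 hypoxia-linked genes, 2 rose in each kind of tumor, beside the same panel shares (medians 0.21 in treated and 0.47 in untreated tumors). In treated tumors they were Hk2 and Vhl, the ubiquitin ligase subunit that targets HIF1 (1.19, adjusted p = 0.00723), while Hif1a itself differed by 0.84 (adjusted p = 0.0867) and the glucose transporter Slc2a1 by -0.50 (adjusted p = 0.267). None of the 3 MYC-linked genes Myc, Mycn and Odc1 passed in either, with Myc at -0.07, Mycn at 0.36 and Odc1 at 0.05 in treated tumors (adjusted p = 0.843, 0.320 and 0.876). Of 7 other SLC16, lactate dehydrogenase and acid-handling genes, only Car12, a membrane carbonic anhydrase, changed in treated tumors, and it fell by 1.35 (2.55-fold lower, adjusted p = 0.00767). Ldhc, Slc16a11 and Slc16a13 exceeded the limit in no sample.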

How the data were processed

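RNA of 18 tumor samples was counted with an nCounter panel, and the values used are the log2 values deposited by the authors. Per the submitters' processing notes limma was used, without a stated version or role. Read from the values, 2 to the deposited log2 value less 1 was a whole count times 1 factor per sample in 12 columns (factors 0.736 to 2.58, all recovered counts up to 500 whole within 0.05). The other 6 columns (in both kinds of tumor, control replicate 1, DC1 replicate 2 and antibody replicate 2) held whole numbers. Whether these are raw or rounded scaled counts is not settled. All combination columns were scaled, so the kind of column was not balanced between the combination and any other arm. Control probes were unscaled, so limits were moved to each sample's scale. Precision is limited by 2 or 3 samples per group.

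The log2 values were used as they stand. Fits were made with limma 3.58.1 under R 4.3.3, and tables were handled in Python 3.11.15. Each fit had 1 mean per group over all 18 samples, giving 10 residual and 3.02 prior degrees of freedom. In each of 20 comparisons p-values were adjusted by Benjamini-Hochberg over 768 genes, with a threshold of 0.05. The script was tested on simulated data. Averages over arms or treatments, the fits without both shallow libraries and those with scaled columns only were added after seeing the data. The members and gene lists were chosen with earlier results of these data known. All 6 members were named, with the 5 genes most alike in pattern among genes above the limit in at least 9 samples. From each neighbouring list the 4 genes with the smallest p for combination against control in treated tumors were named. Slc16a11 and the markers Lat, Zap70, Cd8a and Cd8b1 were named after their values were seen. Some genes that met these rules are not reported here. Alternatives were 2 other scalings, a filter (631 genes), a floor at the limit, a pseudocount of 20, trended robust moderation, fits of only the groups compared, blocks for replicate number and kind of column, and leaving out each sample.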

Additional observations from a re-analysis of the deposited data

How the results depend on the processing

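With 2 or 3 samples a group, the number of members called moved with the settings. Centring on panel medians, which removes the shift of the median gene, called 4 members in place of 1 for combination against control in treated tumors (Slc16a3 higher, the others lower), 1 in place of 0 in untreated tumors (Slc16a6, lower) and 1 in place of 0 for the antibody averaged over the other factors (Slc16a6, lower). It turned Ldha to -0.21 for combination against control in treated tumors and Slc16a1 to -0.010 with DC1. With it, Slc16a3 passed as higher and Ldhb and Slc16a8 as lower with DC1, in place of Slc16a3, Slc16a6 and Slc16a1 as higher. Housekeeping centring called 2 in place of 1 for the treated combination and 1 in place of 3 with DC1. Fitting only the groups compared, with fewer samples, called 0 members for the treated combination against control (in place of 1) and against antibody (in place of 2). The scaled columns alone left 1 sample in each control, DC1 and antibody group, so member calls with them are not set beside the others. They gave 3.24 for Slc16a3 in the treated combination against control and 3.02 against antibody. For Slc16a1 minus Slc16a3 they gave -2.34. Slc16a1 was 0.064 with them, and 0.089 with a block for the kind of column, for the treated combination against control. That block called 1 in place of 0 for combination against antibody in untreated tumors and 2 in place of 1 for treated against untreated tumors. The column block could not be given to the permutation tests. Without both shallow libraries the treated combination called 2, and treated against untreated tumors 0. A floor at the limit also called 0 there. The cause of these changes was not tested.

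Leaving out 1 sample gave 1 to 2 members for the treated combination against control, 0 to 1 for the untreated, 0 to 1 against DC1 and 0 to 3 against antibody in treated tumors, 0 to 2 for treated against untreated tumors averaged and in the DC1 arm, 0 to 1 for them in the combination, and 0 to 1 with antibody. Ldha minus Ldhb ranged from 0.61 to 1.27 and Slc16a1 minus Slc16a3 from -2.88 to -1.97. Slc16a1 for the treated combination against control ranged from -0.26 to 0.064, and Slc16a3 for combination against DC1 from -0.22 to 1.74. The labels do not say whether samples of the same arm and number share a mouse. Correlations of their deviations from the group means were -0.145 (control), 0.685 (DC1), 0.382 (antibody) and 0.350, -0.177 and 0.0536 (combination). They cannot settle this, since in arms with 2 samples a group both numbers give the same value. The replicate block called 0 members for treated against untreated tumors, where Slc16a8 had an adjusted p of 0.060, and the replicate block with arm called 2. It lowered the panel genes called for the untreated combination against control from 129 to 71.

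Panel genes called depended on single samples. The main count was 298 for the treated combination against control (132 to 334 with 1 sample left out, 0 to 325 over other settings), 129 in untreated tumors (1 to 171, 1 to 198), 283 against antibody in treated (106 to 323, 0 to 321) and 96 in untreated tumors (0 to 150, 1 to 124), 14 against DC1 (0 to 162, 0 to 45), 70 between kinds of tumor in the combination (5 to 158, 3 to 107), 358 with DC1 (295 to 384, 64 to 362), 0 with antibody (0 to 53, 0 to 15) and 87 for treated against untreated tumors (0 to 193, 0 to 149). Of 758 recomputed differences of single members, 692 kept direction and call, 35 lost the call, 25 gained it and 6 changed sign.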
